A study of Mus musculus with 2 samples.

Results

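The genes described here are 31 members of the nuclear receptor family outside the NR4A group, taken by gene symbol from a deposited table of 55246 loci. The list leaves out the ROR receptors except Rorb, and further family genes were not part of it. All 31 symbols were found. The rule uses symbols and no measured value, but the list was drawn up with earlier results of these data known. Of these genes, 20 had at least 10 reads over the 2 libraries together and were tested, and 11 had fewer and are called not detected.

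The study sequenced RNA of regulatory T cells (Treg cells, suppressive CD4 T cells whose identity rests on Foxp3) of the colon lamina propria, the tissue under the gut epithelium, of female mice. One library came from WT mice and the other from Exon2KO mice, which carry the Foxp3 allele without exon 2 that the series calls Foxp3∆2. Both libraries share the tissue, the sex and the cell label. The labels used here do not give the age or strain of the mice, the sorting markers, or whether a library came from 1 mouse or from pooled mice. With 1 library per genotype no difference could be set against a spread between samples, and every interval below covers counting error only.

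Nuclear receptors are transcription factors that bind DNA through zinc fingers, and many are switched by a small lipid-soluble ligand such as a steroid, retinoic acid, vitamin D, an oxysterol or a bile acid. Many of them bind DNA as a pair with a retinoid X receptor (RXR), while the steroid receptors usually act as pairs of the same receptor. In the gut, retinoic acid supports the homing and stability of Treg cells, glucocorticoids restrain inflammation through T cells and other cells, and epithelial cells use HNF4, FXR and PXR to run absorptive, bile acid and xenobiotic programmes.

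The WT library held 16281133 reads on genes, and 15412425 were counted for Exon2KO. All 10 T cell and Treg markers had reads in both libraries, among them Foxp3, which carries the deletion, with 6991 reads in WT and 20946 in Exon2KO. A count over the whole gene does not test for the loss of 1 exon. Markers of other cells were present as well. The 17 epithelial markers summed to 97.9 CPM (reads per 1000000 of library size, with sizes scaled by TMM, edgeR's trimmed mean method) in WT and 526 CPM in Exon2KO. Of these 17, 14 were called higher and 0 lower by the criteria given below, against 7.32% and 6.81% of all genes tested. Cdx2 and Fabp2 were at 0 in WT and Cldn4 was at 0 in Exon2KO. Epcam was on the other side and held 49.8 of the 97.9 CPM in WT and 38.1 of the 526 CPM in Exon2KO, so the other 16 markers summed to 48.1 and 488 CPM. The 12 stromal and endothelial markers summed to 81.8 and 77.3 CPM, the 12 myeloid markers to 44.7 and 54.3 CPM, and the 10 B and plasma cell markers to 8620 and 8143 CPM.

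Reads of each gene in the 2 libraries were set against the scaled library sizes by an exact binomial test, 2-sided. A call, higher or lower, needed an adjusted p below 0.05 over all 17363 genes tested together with a difference of 2-fold or more. The test is about these 2 libraries, not about the genotypes. Ratios are Exon2KO over WT on the log2 scale with a prior count of 2, which also sets the 2-fold threshold, and the 95% intervals are exact (Clopper-Pearson) and carry no prior count.

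Of the 20 detected receptors, 3 were called higher (Vdr, Nr1h4 and Hnf4a) and 1 was called lower (Nr3c2) in the Exon2KO library. Over all genes tested, 7.32% were called higher and 6.81% lower, or 14.1% in either direction, so that 4 calls among 20 receptors are near the background. An adjusted p below 0.05 at any fold was found for 9 of the 20, against 42.0% of all genes tested. The median log2 ratio of the detected receptors was 0.16, beside 0.00 (interquartile range -0.33 to 0.36) over all genes tested. If samples are assumed to vary with a biological coefficient of variation (BCV) of 0.2, a relative spread that these libraries cannot measure, edgeR's exact test called 3 receptors (Vdr, Nr1h4 and Hnf4a) and 6.42% of all genes. With a BCV of 0.4 it called 0 receptors and 0.945% of all genes. No result about the family as a group is read from these counts, and the description below is by receptor.

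RefSeq promoter windows (250 bases before and 50 bases after an annotated start, GRCm38.p6) matched 28 of the 31 receptors, all but Hnf4g, Nr3c1 and Thra. They are printed for the 4 called receptors, to show the sequence at RefSeq starts of the genes whose reads differed. The Vdr, Nr1h4 and Nr3c2 windows lie inside the deposited gene spans, downstream of their 5′ ends, so further starts may exist. Capitals mark the nuclear receptor half-site AGGTCA and the GC box GGGCGG on either strand, so that TGACCT and CCGCCC are the same motifs read on the other strand. The motifs do not overlap each other here.
Vdr, chr15:97908247-97908546, minus strand: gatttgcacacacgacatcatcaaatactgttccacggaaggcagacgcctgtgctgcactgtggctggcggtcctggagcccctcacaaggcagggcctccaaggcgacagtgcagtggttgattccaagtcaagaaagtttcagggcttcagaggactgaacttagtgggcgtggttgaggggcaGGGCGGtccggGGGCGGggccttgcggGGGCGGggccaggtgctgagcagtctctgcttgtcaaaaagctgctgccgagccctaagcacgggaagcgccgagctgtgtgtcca
Nr1h4, chr10:89506609-89506908, minus strand: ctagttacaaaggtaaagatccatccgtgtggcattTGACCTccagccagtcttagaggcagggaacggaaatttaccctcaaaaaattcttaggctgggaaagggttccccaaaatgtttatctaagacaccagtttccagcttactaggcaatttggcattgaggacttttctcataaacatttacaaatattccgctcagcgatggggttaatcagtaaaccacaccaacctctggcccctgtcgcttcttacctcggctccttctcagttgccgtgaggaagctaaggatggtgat
Hnf4a, upstream start, chr2:163506607-163506906, plus strand: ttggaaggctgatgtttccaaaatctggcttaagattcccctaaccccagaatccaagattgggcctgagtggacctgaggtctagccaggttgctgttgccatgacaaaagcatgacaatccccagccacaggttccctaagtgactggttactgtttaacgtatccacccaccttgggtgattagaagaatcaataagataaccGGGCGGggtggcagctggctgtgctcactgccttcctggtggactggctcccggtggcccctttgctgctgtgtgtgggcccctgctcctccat
Hnf4a, downstream start, chr2:163546905-163547204, plus strand: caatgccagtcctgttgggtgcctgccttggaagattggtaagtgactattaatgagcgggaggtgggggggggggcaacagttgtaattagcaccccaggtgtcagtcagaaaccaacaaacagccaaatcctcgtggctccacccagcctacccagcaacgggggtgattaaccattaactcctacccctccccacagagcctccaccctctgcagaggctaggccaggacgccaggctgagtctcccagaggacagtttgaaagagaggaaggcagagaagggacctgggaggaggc
Nr3c2, chr8:76902080-76902379, plus strand: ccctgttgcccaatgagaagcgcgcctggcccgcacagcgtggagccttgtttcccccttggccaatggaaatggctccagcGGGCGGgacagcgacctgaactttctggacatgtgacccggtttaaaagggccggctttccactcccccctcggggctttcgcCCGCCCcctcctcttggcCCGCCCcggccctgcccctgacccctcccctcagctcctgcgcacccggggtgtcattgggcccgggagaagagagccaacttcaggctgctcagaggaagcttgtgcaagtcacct
The Vdr window held 3 GC boxes and the Nr3c2 window also held 3, while the upstream Hnf4a window held 1. The Nr1h4 window held 1 half-site and no GC box, and the downstream Hnf4a window held neither motif. Over all 32851 promoter windows in the RefSeq table, 16.3% held the half-site and 35.7% the GC box. These matches describe letters only, and the read counts here are for whole genes, so they do not show which start was used.

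**Figure D1:**
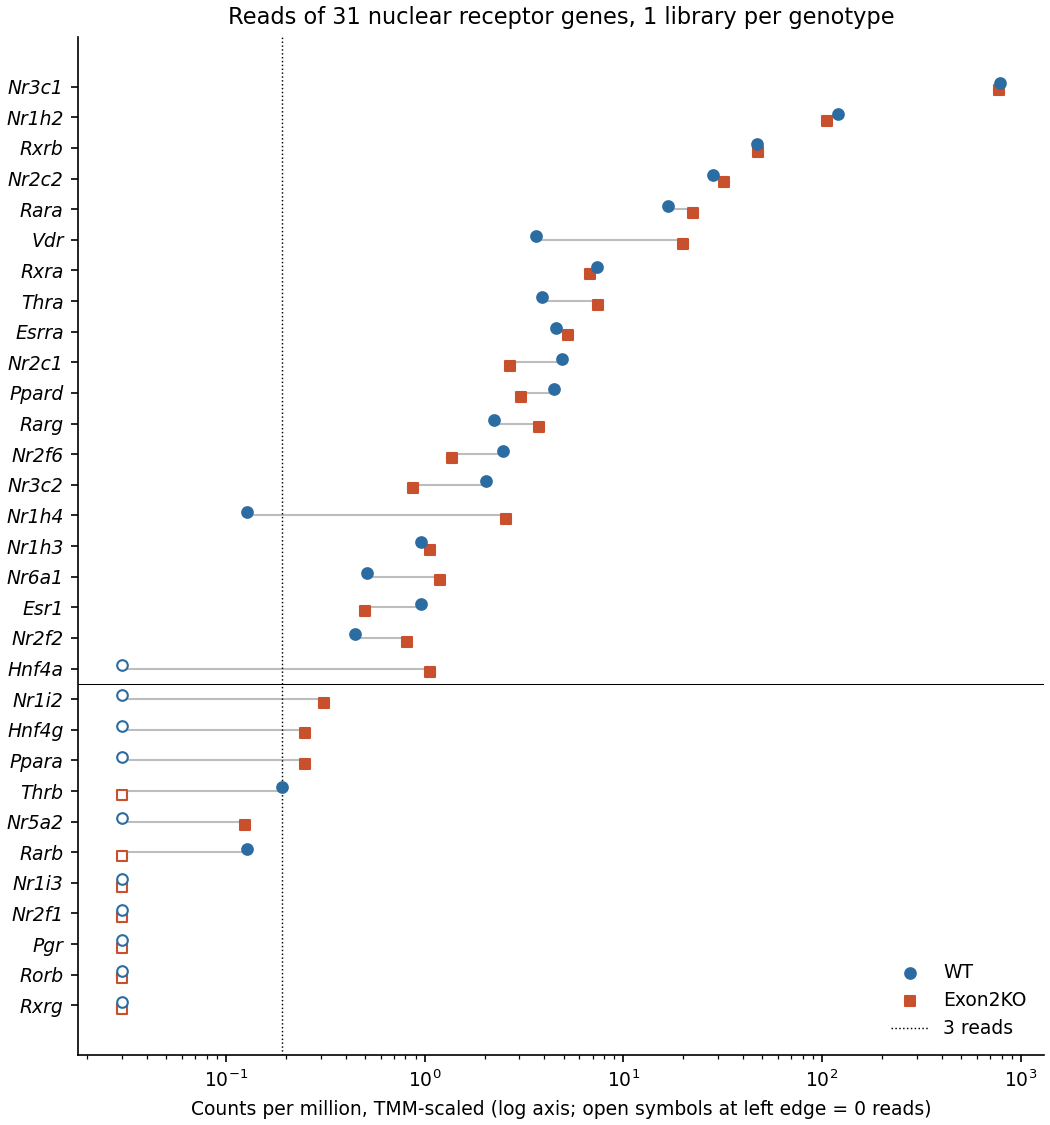
CPM (TMM-scaled, log axis) of all 31 receptor genes in WT (circles) and Exon2KO (squares), ordered by reads, with 0 reads drawn as open symbols at the left edge and the dotted line at 3 reads. The 11 genes below the horizontal line had under 10 reads in all, and Vdr and Nr1h4 show wide gaps between the libraries while Nr3c1 shows almost none.

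Retinoic acid receptors form the first group. Rara, the receptor that carries most retinoic acid signalling in T cells, had 263 reads in WT and 360 in Exon2KO, or 16.8 and 22.5 CPM. Its log2 ratio of 0.42 (0.19 to 0.66) had an adjusted p of 0.00103 in the exact binomial test and was short of 2-fold. Rarg, a paralog, had 35 and 60 reads and a log2 ratio of 0.72 (0.13 to 1.40), also short of 2-fold, with an adjusted p of 0.0345 in the exact binomial test. Rarb was not detected, at 2 and 0 reads, and its exons share 1793 bases with the opposite-strand gene Top2b. Both detected retinoic acid receptors were therefore on the same side of 0 and neither was called, where 14.1% of all genes tested were.

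The list of 20 genes of retinoic acid handling and response had 13 tested members, of which 1 was called higher and 0 lower (14.1% of all genes were called), with a median log2 ratio of 0.25 beside 0.00 over all genes tested. With a minimum of 50 reads over both libraries that median was -0.04. Itgb7, a subunit of the gut homing integrin, had 7954 and 6567 reads and a log2 ratio of -0.30 (-0.35 to -0.26). Dhrs3, a retinaldehyde reductase that retinoic acid induces in many cells, had 1230 and 1525 reads and a log2 ratio of 0.28 (0.18 to 0.39).

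The RXR genes encode the shared partners. Rxrb had 741 reads in WT and 758 in Exon2KO, or 47.2 and 47.4 CPM, and a log2 ratio of 0.01 (-0.14 to 0.16). Rxra had 116 and 109 reads, at 7.39 and 6.82 CPM, with a log2 ratio of -0.11 (-0.51 to 0.27). Rxrg had 0 reads in both libraries, and 3 reads would be 0.191 CPM in WT and 0.188 CPM in Exon2KO. Rxrb was the main RXR transcript on a scale per length as well, at 12.8 CPM per kilobase of gene length in each library against 1.35 and 1.25 for Rxra.

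Vdr, the receptor for the active form of vitamin D, had the smallest adjusted p of the family. The gene (ENSMUSG00000022479, chromosome 15, 97854425 to 97910630 on the minus strand, GRCm38) had 57 reads in WT and 319 in Exon2KO. That is 3.63 and 19.96 CPM, 5.50-fold more in Exon2KO, with a log2 ratio of 2.42 (2.05 to 2.89) and an adjusted p of 5.45e-43 in the exact binomial test. In the authors' deposited table Vdr has a log2 fold change of 2.46 and an adjusted p of 2.34e-05. For a BCV of 0.4 the adjusted p of Vdr in edgeR's exact test was 0.252.

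Activated T cells and gut epithelial cells both express Vdr. The summed epithelial markers were higher in the same library (97.9 and 526 CPM, or 48.1 and 488 CPM without Epcam), led in reads by Car1 (24 and 1830 reads), Krt8 (160 and 1604 reads) and Lgals4 (217 and 1385 reads), and their part in the Vdr difference was not tested. In bulk RNA a change in the share of a cell type and a change in RNA per cell cannot be told apart, and this holds for every receptor here.

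The list of vitamin D handling and response had 10 genes, of which 5 were tested and 0 called, with a median log2 ratio of -0.02 that was above 0 with total counts (0.07) and upper quartile scaling (0.01). Cdkn1a, a cell cycle inhibitor, had 9926 and 10624 reads and a log2 ratio of 0.07 (0.03 to 0.11). Ninj1, which encodes the membrane protein ninjurin 1, had 3177 and 2299 reads and a log2 ratio of -0.49 (-0.57 to -0.41). Cyp24a1, the vitamin D inducible 24-hydroxylase, had 0 reads in both libraries and Cyp27b1, which makes the active hormone, had 1 and 3 reads. Both were singled out after their values were seen. With 5 genes tested and 14.1% of all genes called, nothing is read from the 0 calls in this list.

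The thyroid hormone receptor Thra had 61 reads in WT and 119 in Exon2KO, or 3.89 and 7.45 CPM. Its log2 ratio was 0.92 (0.48 to 1.41), with an adjusted p of 0.000127 in the exact binomial test, just short of 2-fold, and with total counts it was 1.02 and the gene was called. Thra ends over the end of Nr1d1, which lies on the opposite strand and encodes the clock receptor Rev-erb alpha. The annotated exons of the pair share 263 bases of the 4614 exonic bases of Thra. Nr1d1 had 386 and 1054 reads, a log2 ratio of 1.42 (1.25 to 1.60). The labels do not say whether strand was used in counting, so reads in the shared bases cannot be assigned to either gene and the Thra value is uncertain. Thrb had 3 and 0 reads and was not detected. Of 11 genes of thyroid hormone handling and response, 5 were tested and 0 called, where 14.1% of all genes were (median -0.08, but 0.03 with total counts). In that list Bcl3 had 4587 and 3392 reads and Thrap3 had 1682 and 1621.

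**Figure D2:**
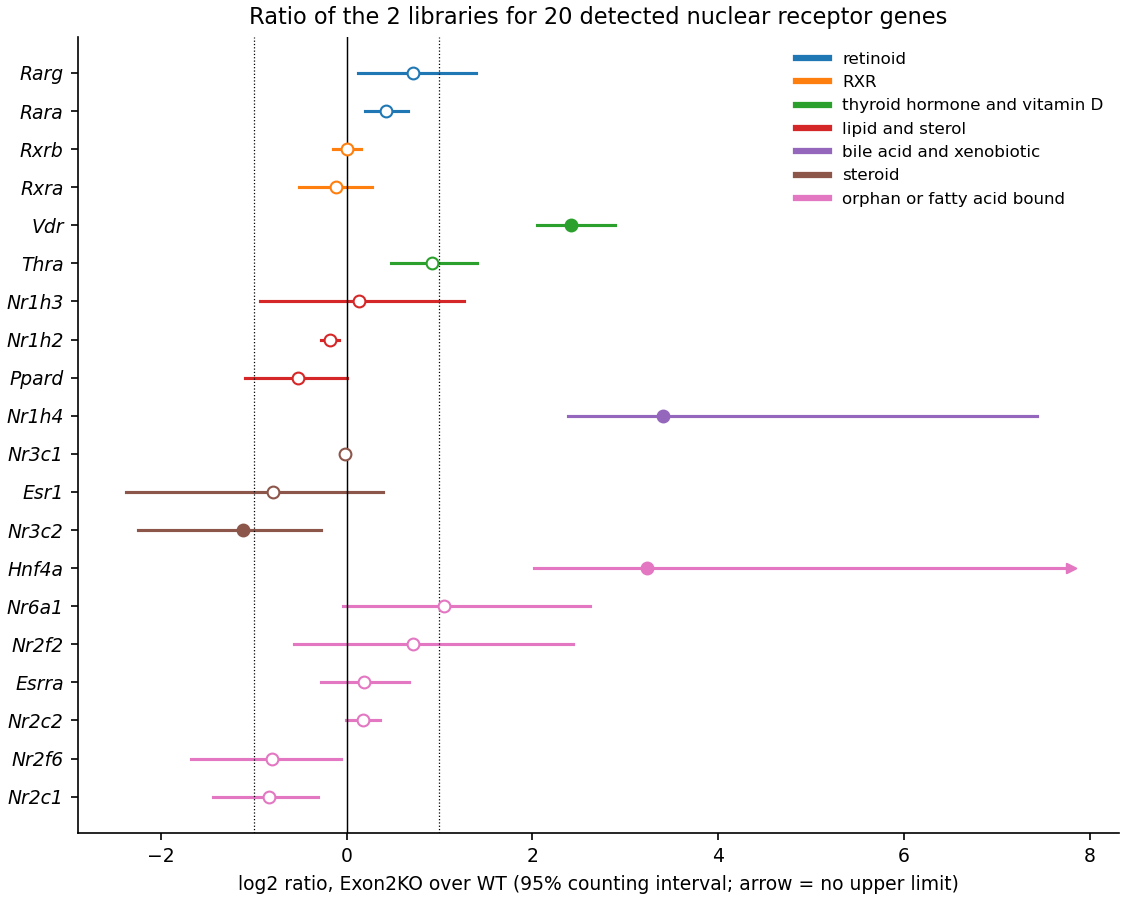
Log2 ratio of Exon2KO over WT (x axis) for the 20 detected receptors, coloured by ligand group, with 95% counting intervals and dotted lines at 2-fold. Filled points were called; the interval of Hnf4a has no upper limit because WT had 0 reads, and the narrow interval of Nr3c1 lies across 0.

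None of the 3 tested receptors for lipids and sterols was called, where 14.1% of all genes tested were. Nr1h2, which encodes the oxysterol receptor LXR beta, was second in level among the receptors, with 1891 reads in WT and 1699 in Exon2KO, or 120 and 106 CPM. Its log2 ratio was -0.18 (-0.28 to -0.08), with an adjusted p of 0.000757 in the exact binomial test, far from 2-fold. Nr1h3, which encodes LXR alpha and is typical of macrophages and liver, had 15 and 17 reads, a log2 ratio of 0.14 (-0.94 to 1.26), an interval too wide at this depth to show a difference. Per length, Nr1h2 stood at 35.9 and 31.7 CPM per kilobase against 0.380 and 0.423 for Nr1h3.

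Among 13 LXR target genes 12 were tested, with 0 called higher, 2 called lower (7.32% and 6.81% over all genes) and a median log2 ratio of -0.05, which was 0.06 with total counts. Smpdl3a, a phosphodiesterase gene and LXR target, had 3212 and 3214 reads (log2 ratio -0.02, -0.10 to 0.05). Srebf1, the regulator of fatty acid synthesis, had 590 and 715 reads (0.25, 0.09 to 0.41). The 2 called lower were the cholesterol exporters Abca1, with 49 and 18 reads (-1.37, -2.34 to -0.67), and Abcg8, with 10 and 0 reads. Set against 3 reads in Exon2KO, Abcg8 would be 3.39-fold lower, and the interval of its log2 ratio lies below -1.19. Both genes were named after their values were seen.

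Ppard, a fatty acid sensor found in most tissues, had 70 reads in WT and 49 in Exon2KO, or 4.46 and 3.07 CPM, with a log2 ratio of -0.52 (-1.10 to 0.01). Ppara, the form that drives fatty acid oxidation in liver and gut epithelium, was not detected, at 0 and 4 reads. In the list of 20 PPAR targets 15 were tested, 4 were called higher and 0 lower, against 7.32% and 6.81% of all genes, and the median log2 ratio was 0.03. Fabp4, a fatty acid carrier, had 23 and 78 reads (1.65, 1.05 to 2.47), and Plin2, a lipid droplet coat protein, had 1086 and 2332 (1.08, 0.97 to 1.18). The summed epithelial markers were higher in the same library (97.9 and 526 CPM), and their part in these calls was not tested.

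Nr1h4 encodes FXR, the bile acid receptor of liver and intestinal epithelium. The gene (ENSMUSG00000047638, chromosome 10, 89454234 to 89533585 on the minus strand) had 2 reads in WT and 41 in Exon2KO, or 0.127 and 2.57 CPM. The ratio was 20.1-fold, and the interval of its log2 ratio of 3.41 ran from 2.39 to 7.43, since it rests on 2 WT reads. In the authors' deposited table the log2 fold change is 4.25 and the adjusted p 6.98e-05. For a BCV of 0.4 the adjusted p in edgeR's exact test was 0.063. The xenobiotic receptor PXR (Nr1i2) had 0 and 5 reads and was not detected, and its relative CAR (Nr1i3) had 0 reads in both libraries, with 3304 exonic bases shared with the opposite-strand gene Tomm40l.

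Of 16 target genes of FXR, PXR and CAR, 8 were tested, 2 were called higher and 0 lower (7.32% and 6.81% over all genes), with a median log2 ratio of 0.60. Cyp2c55, a cytochrome P450 of colon epithelium, went from 3 to 122 reads (4.61, 3.74 to 7.62). Abcb1a, the drug efflux pump that is also active in T cells, was on the other side of 0, with 4375 and 2240 reads and a log2 ratio of -0.99 (-1.07 to -0.92), just short of 2-fold. Gstm1, a glutathione transferase, had 99 and 96 reads (-0.07, -0.49 to 0.35). The summed epithelial markers were at 97.9 CPM in WT and 526 CPM in Exon2KO, with 14 of 17 called higher, and their part in the Nr1h4 difference and in this list was not tested.

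Hnf4a, a factor of gut and liver epithelium that binds fatty acids, had 0 reads in WT and 17 in Exon2KO (ENSMUSG00000017950, chromosome 2, 163506808 to 163572910 on the plus strand). Set against 3 reads in WT, the 1.06 CPM in Exon2KO would be 5.57-fold higher, and the interval of the log2 ratio starts at 2.02. The gene was called with an adjusted p of 7.72e-05 in the exact binomial test. The adjusted p of Hnf4a is 0.00477 in the authors' deposited table. For a BCV of 0.4 the adjusted p in edgeR's exact test was 0.131. Its paralog Hnf4g had 0 and 4 reads and Nr5a2 (LRH-1, a receptor of intestinal crypts) had 0 and 2, both not detected. These 3 genes with Nr1h4 and Nr1i2, all of them typical of intestinal epithelium, held 2 reads in WT and 69 in Exon2KO together, a sum formed after the values were seen.

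HNF4 targets of the intestine gave the largest median of the 9 pathway lists. Of 16 genes 10 were tested, and 7 were called higher and 0 lower (7.32% and 6.81% over all genes). The median log2 ratio was 2.38, or 2.34 with genes at 0 in WT set against 3 reads. With a minimum of 50 reads over both libraries the median was 1.57. Fabp2, the intestinal fatty acid binding protein, had 0 and 169 reads. That is 55.3-fold higher if set against 3 reads in WT, and the interval of its log2 ratio starts at 5.48. Cldn3, a tight junction protein, had 29 and 163 reads (2.39, 1.89 to 3.09), and Vil1, which encodes villin of the brush border, had 9 and 56 (2.38, 1.59 to 3.81). The list shares 5 genes with the 17 epithelial markers (Fabp2, Cldn3, Vil1, Cdx2 and Cdh1), all of them among the 7 called higher. The 2 lists are therefore not separate results. Of the tested genes not shared, Cyp2c65 and Slc5a1 were called, and Apoa1 (0.77), Dpp4 (0.26) and Mttp (-0.27) were not. Those not named before were singled out after their values were seen. The median log2 ratio of the epithelial markers was 3.12. The part of epithelial RNA in the Hnf4a and Nr1h4 differences was not tested. Epcam, an epithelial marker named after its values were seen, was not called and had 782 and 609 reads at a log2 ratio of -0.39.

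**Figure D3:**
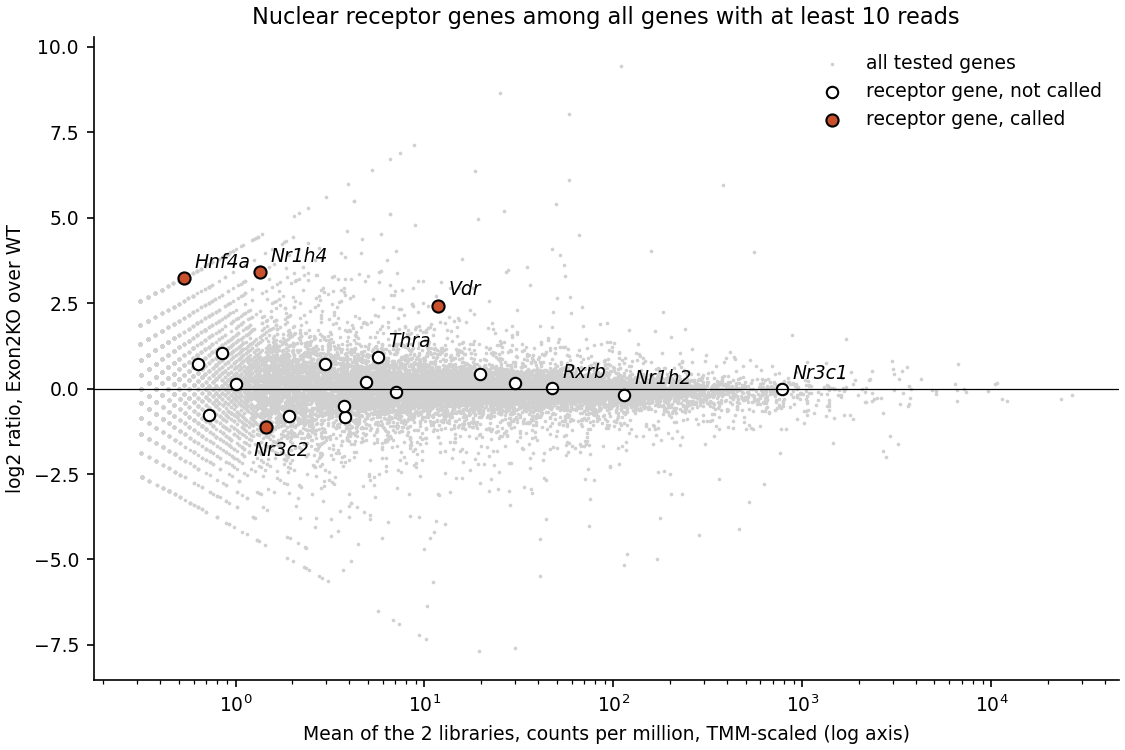
Log2 ratio of Exon2KO over WT (y axis) against the mean level of the 2 libraries in CPM (log x axis) for all 17363 genes tested (grey), with the 20 detected receptors as circles, filled where called. The 4 called receptors have mean levels between 0.532 and 11.8 CPM, where the ratios of all genes scatter more widely, while Nr3c1, Nr1h2 and Rxrb lie near 0 at higher levels.

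Steroid receptors included the most abundant member and the only called decrease. Nr3c1, the glucocorticoid receptor, had 12321 reads in WT and 12405 in Exon2KO, or 785 and 776 CPM, which is 75.7% and 74.4% of all reads of the 31 genes. Its level exceeded that of 99.1% of the genes tested. The log2 ratio was -0.02 (-0.05 to 0.02), and with total counts it was 0.09 and with upper quartile scaling 0.02, so that the sign depends on the scaling and the size stays far below 2-fold. Per length it stood at 106 and 105 CPM per kilobase, above all other receptors in both libraries.

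Nr3c2, the mineralocorticoid receptor, had 32 reads in WT and 14 in Exon2KO, or 2.04 and 0.876 CPM (ENSMUSG00000031618, chromosome 8, 76899442 to 77245012 on the plus strand). It was 2.33-fold lower in Exon2KO, with a log2 ratio of -1.11 (-2.24 to -0.27) and an adjusted p of 0.0204 in the exact binomial test. In the authors' deposited table Nr3c2 has an adjusted p of 0.453. For a BCV of 0.2 the adjusted p in edgeR's exact test was 0.404, and with a prior count of 5 the log2 ratio was -0.98, under 2-fold, so the call rests on few reads. The estrogen receptor Esr1 had 15 and 8 reads, a log2 ratio of -0.79 (-2.38 to 0.40) in an interval that spans 0. The progesterone receptor Pgr had 0 reads in both libraries.

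In the list of 20 glucocorticoid and mineralocorticoid response genes 17 were tested, 2 were called higher and 0 lower, and the median log2 ratio was -0.22. This count is near the 14.1% of all genes called, so nothing is read from it for the list. Ddit4, a stress-induced inhibitor of mTOR signalling, had 95 and 202 reads (1.05, 0.70 to 1.43) and was called. Nfkbia, the NF-kB inhibitor, had 66554 and 47991 reads (-0.50, -0.51 to -0.48), and Hsp90ab1, a chaperone that holds the receptor ready for ligand, had 40883 and 32575 (-0.35, -0.37 to -0.33). The 17 tested genes lay on both sides of 0, with 7 above and 10 below, and glucocorticoid-induced genes were among both. Zbtb16 (PLZF), the other called gene, had 11 and 32 reads (1.36, 0.49 to 2.65), and Per1 had 671 and 787 reads at a log2 ratio of 0.20. Tsc22d3 (GILZ) had 7993 and 6203 reads, Fkbp5 318 and 278, and Dusp1 38106 and 20759, at log2 ratios of -0.39, -0.22 and -0.90, without a call. The genes of the epithelial sodium channel, a channel under mineralocorticoid control, were close to 0, with 0 reads of Scnn1a and Scnn1g in both libraries and 1 and 0 of Scnn1b. These 8 genes were named after their values were seen.

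Receptors without an established hormone make up the last group, with Hnf4a described above. Nr2c2 (TR4) had 444 reads in WT and 511 in Exon2KO, or 28.3 and 31.97 CPM, and a log2 ratio of 0.18 (-0.01 to 0.36). Its close relative Nr2c1 (TR2) had 77 and 43 reads, or 4.90 and 2.69 CPM, a log2 ratio of -0.84 (-1.44 to -0.31) with an adjusted p of 0.00449 in the exact binomial test, short of 2-fold. The ratios of Nr2c1 and Nr2c2, which can pair with each other, thus lay on opposite sides of 0, but the interval of Nr2c2 spans 0. The opposite-strand gene Mrps25 shares 4590 of the 14935 exonic bases of Nr2c2, and it had 459 and 375 reads, so the Nr2c2 value is uncertain.

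Nr2f6, a repressor of Il17a in T helper cells, had 39 reads in WT and 22 in Exon2KO, or 2.48 and 1.38 CPM. The log2 ratio was -0.80 (-1.68 to -0.06), and the adjusted p was 0.0655 in the exact binomial test. Its exons share 1622 bases with the opposite-strand gene Ocel1 (386 and 379 reads), so its few reads are uncertain. Esrra (ERR alpha), which drives mitochondrial genes, had 72 and 84 reads and a log2 ratio of 0.19 (-0.27 to 0.67). Nr6a1 (GCNF, a germ cell factor) had 8 and 19 reads (1.05, -0.04 to 2.62) and Nr2f2 (COUP-TFII, a stromal and venous factor) 7 and 13 (0.72, -0.56 to 2.43). Nr2f1 and Rorb had 0 reads in both libraries. Apart from Hnf4a, none of the members in these last 2 paragraphs was called, where 14.1% of all genes tested were.

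Coregulators, the proteins through which these receptors act, formed the last list. Of 24 genes 23 were tested and 0 were called, where 14.1% of all genes were, with a median log2 ratio of 0.12 beside 0.00 over all genes tested, while 12 had an adjusted p below 0.05 at any fold, a share near the 42.0% of all genes tested. Their log2 ratios ran from -0.43 to 0.78. The corepressor Ncor1 had 4101 reads in WT and 5286 in Exon2KO (0.34, 0.28 to 0.40). Nrip1 (RIP140), a corepressor of several receptors, had 6468 and 6701 (0.02, -0.02 to 0.07).

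**Figure D4:**
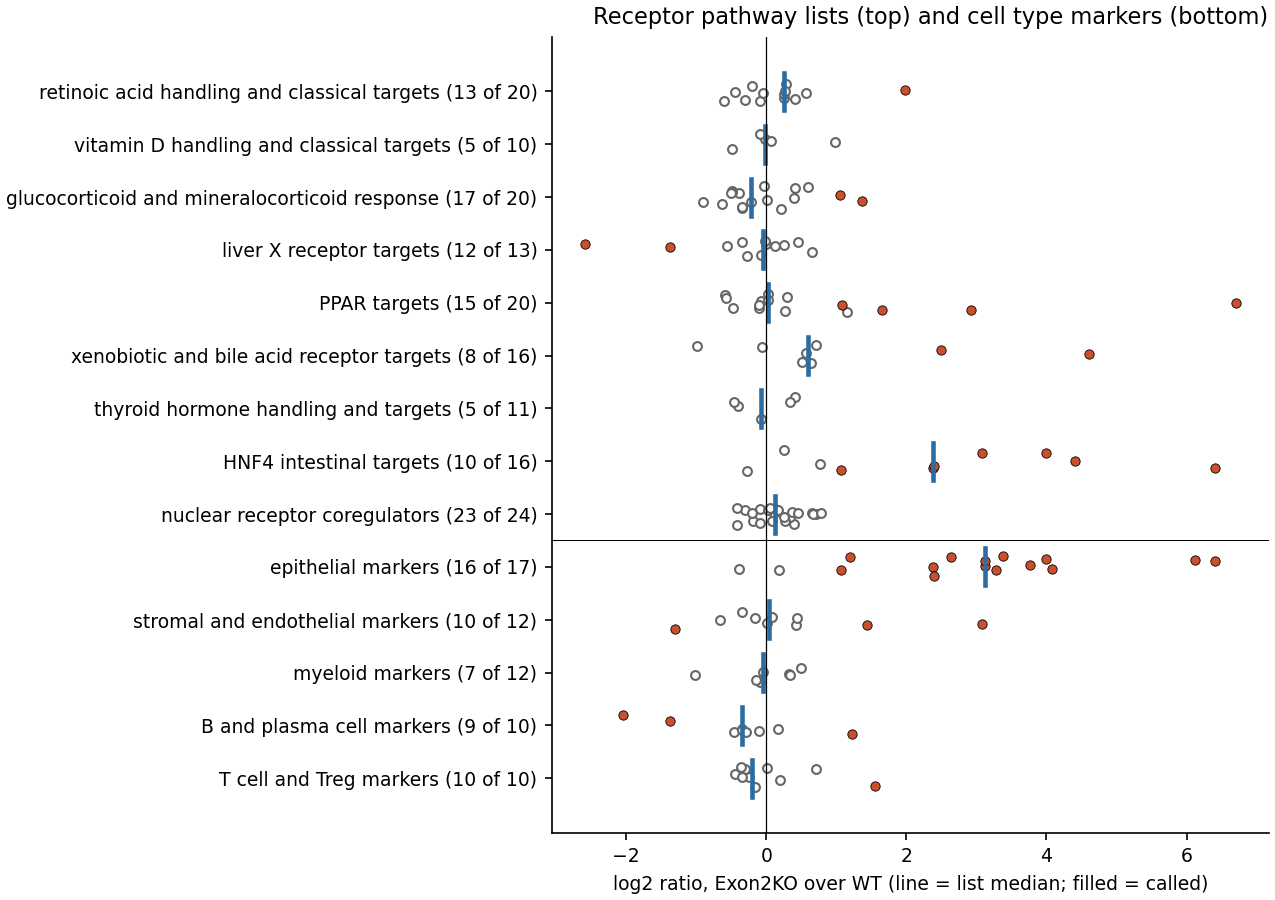
Log2 ratio of Exon2KO over WT (x axis) for the tested genes of 9 receptor pathway lists and 5 cell type marker lists, with blue lines at the list medians, filled points for called genes and, in brackets, genes tested of genes listed. HNF4 intestinal targets and epithelial markers, which share 5 genes, have medians of 2.38 and 3.12, while coregulators lie close to 0.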

How the data were processed

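The 2 libraries were compared from the raw read counts per gene that the authors deposited, with no replicate of either genotype. The submitters' processing notes name HISAT2 2.0.5, StringTie 1.3.3b, featureCounts 1.5.0-p3 and DESeq2 1.16.1 and the build mm10 (GRCm38). Use of strand and the annotation release are not given in the sources used here. The deposited FPKM, scaled count signal and gene length came with the counts; FPKM and signal were not used further, and length gave the values per kilobase. The log2 fold change and p-value columns are the authors' deposited comparison, whose tool is not given in the sources used here.

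Counts were scaled with TMM in edgeR 4.0.16 (R 4.3.3; factors 0.964 for WT and 1.04 for Exon2KO). One library per group leaves no spread for edgeR's quasi-likelihood test. A 2-sided exact binomial test with Benjamini-Hochberg adjustment over 17363 genes was used instead (Python 3.11.15, scipy 1.17.1). It was also run on counts simulated with counting error only, which cannot show how it does with a spread between samples. For a library at 0 reads the fold is set against 3 reads, which leaves out the counting error of the other library. Alternatives were DESeq2 1.42.0 size factors, total counts, upper quartile, read minimums, fold thresholds, prior counts and an assumed BCV in edgeR's exact test. Overlapping exons came from GENCODE M21.

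Members and lists were chosen with earlier results of these data known. Genes named besides the members are, from each pathway list, up to 4 called genes with at least 50 reads in 1 library by size of ratio, or else the list's tested genes with the most reads, up to 2, added where fewer than 2 were called; the 3 epithelial markers with the most reads; Foxp3; and genes overlapping a member. One gene that this rule names is not reported here. Others are said to be named after their values were seen. Without molecular identifiers, reads are not independent molecules, and intervals cover counting error only.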

Additional observations from a re-analysis of the deposited data

How the results depend on the processing

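DESeq2 size factors, upper quartile scaling and no read filter each called the same 4 receptors (Vdr, Nr1h4, Hnf4a and Nr3c2), and total counts added Thra, for 5. A minimum of 50 reads left 1 of them (Vdr; 1 higher and 0 lower), because it tested fewer genes, and a threshold of 1.5-fold gave 7 (5 higher and 2 lower). A threshold of 4-fold left 3, with 0 lower, as did an assumed BCV of 0.2, and a BCV of 0.4 left 0 receptors in either direction. Over all genes, 2454 were called, against 1335 with 50 reads, 3760 at 1.5-fold, 907 at 4-fold, 1115 with a BCV of 0.2 and 164 with 0.4. The pathway lists held 18 called genes, and 9 with 50 reads. Total counts moved the median of all genes from 0.00 to 0.11 on the log2 scale. The sign of the Nr3c1 log2 ratio changed with total counts (0.089) and upper quartile scaling (0.016). List medians that changed sign were those of retinoic acid with 50 reads (-0.043), vitamin D with total counts (0.066) and upper quartile (0.0053), LXR targets with total counts (0.055), and thyroid hormone with total counts (0.026) and with 50 reads (0.13). With 50 reads the HNF4 median was 1.57. Among the called receptors, Nr1h4, Hnf4a and Nr3c2 had under 50 reads over both libraries, which limits their intervals. No paired analysis was possible because each genotype has 1 library, so no library could be left out either.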

Other observations

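Some called genes of the pathway lists had too few reads for the naming rule and were singled out after their values were seen. Aldh1a1, a retinaldehyde dehydrogenase that makes retinoic acid, had 2 reads against 14 (WT first, as in what follows), at a log2 ratio of 1.98 (0.66 to 5.96). Cd36, a fatty acid transporter and PPAR target, had 1 and 21 reads (2.92, 1.73 to 9.74). Cyp2c65 and the glucose transporter gene Slc5a1, both of gut epithelium, had 0 reads in WT against 41 and 15 in Exon2KO. Set against 3 reads in WT they would be 13.4-fold and 4.91-fold higher, and the intervals of their log2 ratios start at 3.38 and 1.82. Among coregulators, Prmt1 (441 and 773 reads, 0.78) and Crebbp (1279 and 2139 reads, 0.72) had the highest ratios and were not called.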
